A study of Homo sapiens with 2 samples.

Results

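The genes described here are 10 transcripts that the ERK pathway is known to induce: the MAP kinase phosphatases DUSP1, DUSP4, DUSP5 and DUSP6, the receptor signalling inhibitors SPRY2, SPRY4 and SPRED1, the survival-related PHLDA1, and the ETS transcription factors ETV4 and ETV5. They were chosen by name as readouts of ERK activity, with earlier results of these data known. All 10 were found among the 18417 genes that the arrays measured with a single-symbol probe. HepG2 is a human hepatoma line, derived from a liver cancer, that carries an activating RAS mutation. The series holds 2 arrays, each of HepG2 cells kept in MEM medium: 1 of control cells, and 1 of cells given amorphous silica nanoparticles (SiO2-NP) at 100 mg/L for 24 h. The labels give 1 array per group, so no value below has a replicate error and no test could be run. Higher and lower refer to this pair of arrays, and whether the same would be seen in other cultures is unknown.

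In the ERK pathway, growth factor receptors switch on RAS, which activates the kinases RAF, MEK and ERK in turn. Active ERK induces genes that restrain it: DUSP proteins remove the activating phosphates of MAP kinases, and Sprouty and Spred proteins act between the receptor and RAF. ERK signalling also raises the PEA3 group of ETS factors, to which ETV4 and ETV5 belong. The levels of these transcripts are therefore widely read as a measure of ERK output.

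RefSeq promoter sequences (GRCh38.p14) were at hand for 6 of the 10 genes. The stretches of 250 bases before the start site are shown for 4 genes: those with the highest and the lowest difference among the genes (PHLDA1 and DUSP6), and the 2 next highest (SPRY4 and DUSP1), so that the DNA beside each can be compared. Capitals mark a short CRE (TGACG), the full CRE (TGACGTCA) that CREB and ATF factors bind, and the ETS core CGGAA, each on either strand.
PHLDA1, chr12:76031777-76032026, minus strand: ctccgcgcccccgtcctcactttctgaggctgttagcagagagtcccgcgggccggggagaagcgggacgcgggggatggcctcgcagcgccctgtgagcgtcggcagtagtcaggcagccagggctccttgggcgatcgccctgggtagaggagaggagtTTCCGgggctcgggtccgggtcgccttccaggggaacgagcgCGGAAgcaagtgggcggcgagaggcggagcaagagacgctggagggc
SPRY4, chr5:142324248-142324497, minus strand: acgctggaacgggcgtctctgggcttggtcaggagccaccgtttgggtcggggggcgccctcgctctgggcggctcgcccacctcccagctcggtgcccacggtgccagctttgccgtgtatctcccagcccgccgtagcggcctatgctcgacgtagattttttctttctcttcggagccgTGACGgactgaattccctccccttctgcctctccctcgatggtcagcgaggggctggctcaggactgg
DUSP1, chr5:172771196-172771445, minus strand: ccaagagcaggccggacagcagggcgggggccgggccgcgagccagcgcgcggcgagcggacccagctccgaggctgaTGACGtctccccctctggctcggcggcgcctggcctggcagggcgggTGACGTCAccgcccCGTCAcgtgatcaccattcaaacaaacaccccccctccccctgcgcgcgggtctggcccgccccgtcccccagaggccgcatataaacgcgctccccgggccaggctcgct
DUSP6, chr12:89352502-89352751, minus strand: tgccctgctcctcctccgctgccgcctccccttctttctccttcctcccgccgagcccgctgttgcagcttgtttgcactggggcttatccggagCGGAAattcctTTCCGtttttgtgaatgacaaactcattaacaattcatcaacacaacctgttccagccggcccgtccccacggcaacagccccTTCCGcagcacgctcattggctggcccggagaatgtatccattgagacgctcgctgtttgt

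The letters differ between the phosphatase promoters. That of DUSP1 held 1 full CRE and 4 short CREs, of which the full CRE contains 2, and no ETS core. That of DUSP6 held 3 ETS cores and no short CRE. PHLDA1 had 2 ETS cores, and SPRY4 had 1 short CRE. SPRED1 and SPRY2, both lower on the SiO2-NP array, were scanned but are not shown. SPRED1 had no match. SPRY2 had 1 short CRE and 2 ETS cores at 1 of its 3 start sites and no match at the others. Over the 35116 promoters of the RefSeq table, 1.65% held the full CRE, 21.2% the short CRE and 30.3% the ETS core in a stretch of this length, so the short CRE and the ETS core are common letters. Also scanned were a longer ETS form (CCGGAAG), the AP-1 site (TGANTCA) and the CArG box (CCWWWWWWGG), where N is any base and W is A or T. None of these matched in any of the 6 genes. Of all promoters, 8.52%, 6.57% and 1.16% held them, in that order. A match describes the letters alone and shows no binding.

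The 10 genes did not move as a block, and none differed by as much as 1.2-fold (0.26 on the log2 scale). Of the 10, 6 were higher on the SiO2-NP array and 4 were lower, where 52.3% of all measured genes were higher. The differences ran from -0.16 for DUSP6 to 0.20 for PHLDA1. A gene was called expressed when its mean log2 intensity was at or above 7.26, the median over genes, which is a filter on level and not a detection call. By that filter 9 of the 10 genes were expressed, and DUSP4 was not. Among the 9209 expressed genes of the arrays, 2.99% passed 1.2-fold upward and 7.53% passed it downward, and 0 of the 9 expressed members were in either class. At 1.5-fold the shares were 0.141% higher and 0.250% lower, again with 0 members in each.

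Each array measured a whole culture, so a change in the cells that express a gene and a change in RNA per cell cannot be told apart. Both arrays carried the hepatoma profile: 10 of 10 hepatocyte markers were expressed, with ALB at log2 13.50 (control) and 13.41 (SiO2-NP), and AFP at 13.06 and 13.04. Of markers of other cells, 1 of 10 for fibroblasts, 2 of 9 measured for leukocytes and 0 of 10 for endothelium passed the filter. The leukocyte genes were LYZ, at 13.23 (control) and 13.27 (SiO2-NP), and CD68, at 9.61 and 9.49. LYZ was thus brighter than AFP on both arrays. The fibroblast gene was COL1A1, at 7.43 and 7.67. The median difference over all expressed genes was -0.03, with an SD of 0.16 across genes.

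**Figure D1:**
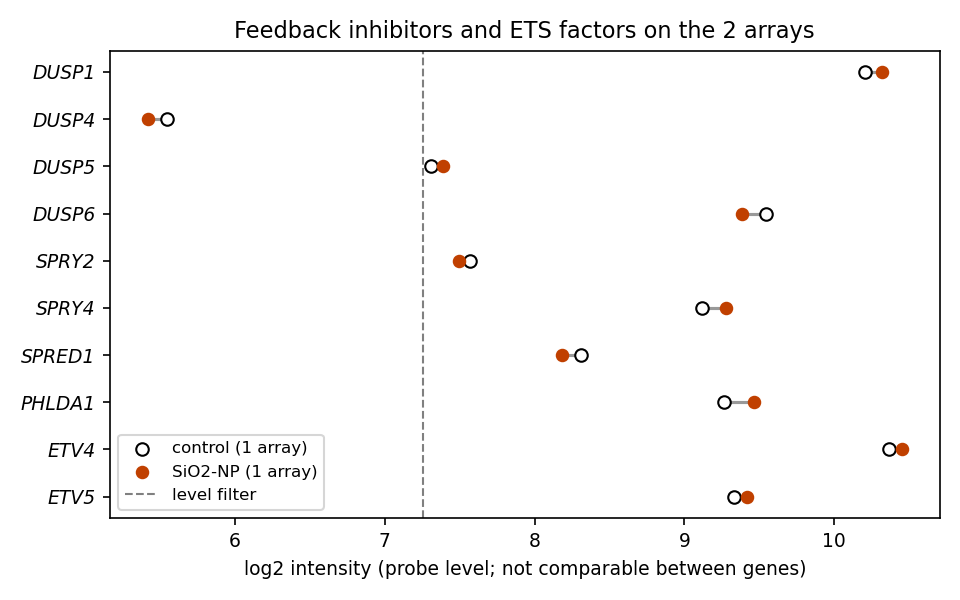
Log2 intensity (x axis) of each of the 10 genes (y axis) on the control array (open circle) and the SiO2-NP array (filled circle), with the level filter at 7.26 as a dashed line. The pairs of circles lie close together, DUSP4 alone lies left of the filter, and DUSP4, DUSP6, SPRY2 and SPRED1 have the filled circle on the lower side; 1 array per group, so there are no error bars.

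The phosphatases were split. DUSP1, a nuclear phosphatase that acts on p38, JNK and ERK and is induced rapidly by stress and growth factors, measured 10.20 in the control and 10.32 after SiO2-NP, a difference of 0.12. DUSP5, a nuclear phosphatase specific to ERK, measured 7.31 and 7.39, a difference of 0.08. DUSP6, the cytoplasmic phosphatase specific to ERK, measured 9.54 and 9.38, a difference of -0.16 or 1.12-fold lower. DUSP1 was thus above the control and DUSP6 below it, and the ERK-specific DUSP5 and DUSP6 lay on opposite sides of it. Among genes of like level, 37.6% had a larger absolute difference than DUSP1, 59.1% than DUSP5 and 24.5% than DUSP6. The mean of DUSP5, 7.35, lay just above the filter.

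DUSP4, a nuclear phosphatase of ERK, JNK and p38, had the only signal under the filter, with 5.55 in the control and 5.42 after SiO2-NP. Its difference of -0.13 lay among dim probes, where the array pair varied more. When the genes were ranked by mean level and cut into 4 classes of equal size, the dimmest class had an SD of 0.20 across genes and a median of 0.07. In that class 52.1% of the genes had a larger absolute difference than DUSP4.

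The Sprouty and Spred genes were split as well. SPRY4, a Sprouty protein that blocks receptor signalling to RAS and RAF, measured 9.12 in the control and 9.28 after SiO2-NP, 1.11-fold higher. SPRY2, its close relative that also binds the receptor adaptor machinery, measured 7.57 and 7.50, a difference of -0.07. SPRED1, which recruits the RAS inactivator neurofibromin to the membrane, measured 8.31 and 8.18, a difference of -0.13. Only SPRY4 of the 3 was above the control, and the sizes of the other differences were smaller than its 0.16. In their level classes, 25.4% of genes had a larger absolute difference than SPRY4, 41.9% than SPRED1 and 63.8% than SPRY2.

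PHLDA1, a pleckstrin-homology protein linked to cell survival and to receptor restraint, had the largest difference of the 10. It measured 9.26 in the control and 9.46 after SiO2-NP, which is 1.15-fold higher. Of the expressed genes, 94.1% had a smaller (or more negative) difference, and 16.2% of the genes in its level class had a larger absolute difference. The value is therefore in the upper part of the distribution but short of 1.2-fold.

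The ETS factors had nearly equal differences. ETV4, a PEA3 group activator linked to growth and invasion, measured 10.36 on the control array and 10.45 on the SiO2-NP array. ETV5, its relative, measured 9.33 and 9.42. Both differed by 0.09, or 1.06-fold. In the same level class 51.2% of genes had a larger absolute difference than ETV5, and 50.4% than ETV4. The pair were thus alike in direction and size, and lay near the middle of their level class by size.

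As a list, the expressed members had a median difference of 0.09 against -0.03 for all expressed genes, and 6 of 9 were above the control against 40.2% of all expressed genes. Over all 10 measured members the median was 0.08. The differences of the 10 genes had an SD of 0.13, against 0.16 over all expressed genes. Their median absolute difference was 0.12, against 0.096 over all expressed genes, so the measures of size did not point the same way. Both measures for the 10 genes include DUSP4, which was below the filter, so the sets compared are not alike in level. For each of the 10, the difference lay inside the central 95% of genes of the same level class. That range ran from -0.34 to 0.24 in the brightest class, which holds DUSP1, DUSP6, SPRY4, PHLDA1, ETV4 and ETV5, and from -0.41 to 0.30 in the next, which holds DUSP5, SPRY2 and SPRED1. These ranges include real differences between the arrays and are no replicate error.

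**Figure D2:**
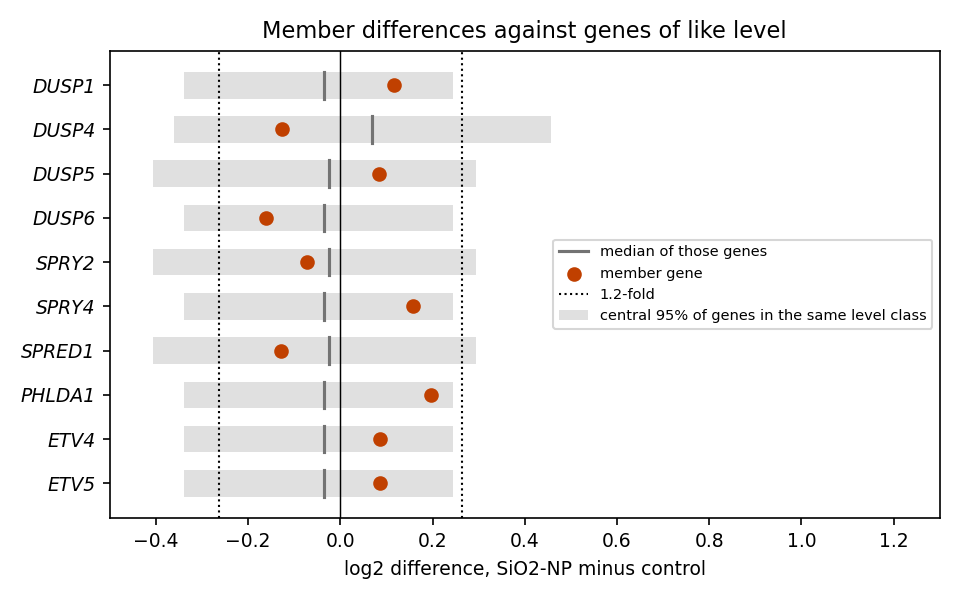
Log2 difference, SiO2-NP minus control (x axis), of each gene (points), with the central 95% (grey bar) and the median (tick) of genes of the same level class, and 1.2-fold as dotted lines. All 10 points lie within their bars and between the dotted lines, from -0.16 for DUSP6 to 0.20 for PHLDA1.

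**Figure D3:**
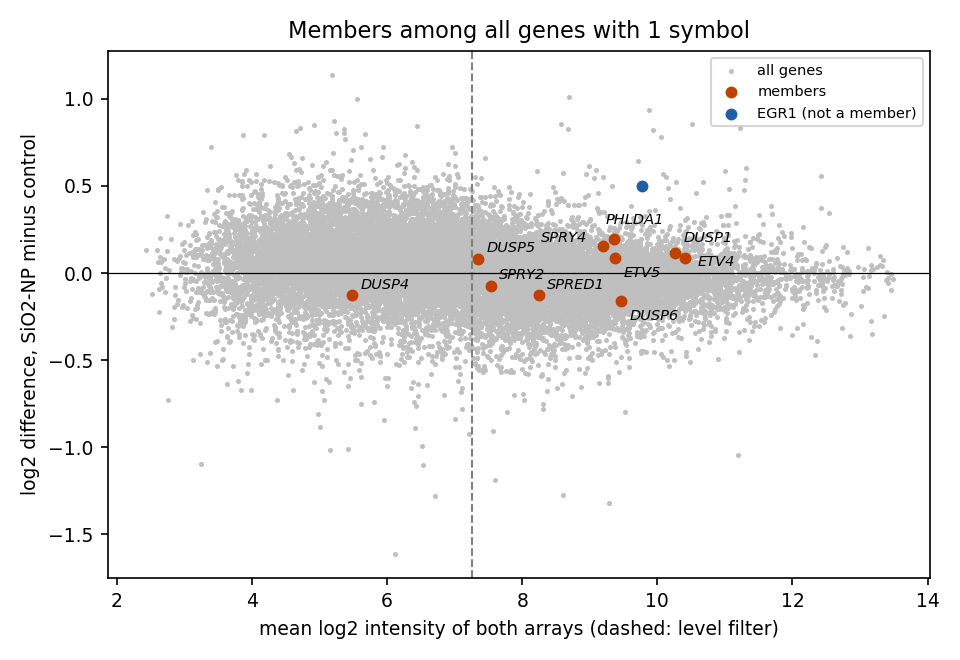
Log2 difference (y axis) against the mean log2 intensity of both arrays (x axis) for the 18417 genes (grey), with the 10 genes in orange and EGR1 in blue, and the level filter as a dashed line. The 10 genes lie within the main cloud, while EGR1, at 0.50, lies above it.

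Around these genes, the other MAP kinase phosphatases showed a similar split. Of 6 measured genes, 4 were expressed, of which 2 were above and 2 below the control. Their median was -0.0005, with 0 past 1.2-fold. DUSP16, a phosphatase of JNK and p38, measured 9.44 in the control and 9.59 after SiO2-NP. DUSP7, a cytoplasmic ERK phosphatase of the same subgroup as DUSP6, measured 9.58 and 9.46, a difference of -0.12. DUSP6 and DUSP7 were therefore both lower, and DUSP9, the remaining gene of that subgroup, differed by -0.04; DUSP9 was named after its value was seen.

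All 4 expressed of the 6 measured relatives of the Sprouty, Spred and PHLDA genes were above the control. The share over all expressed genes was 40.2%, and 4 genes are few. Their median was 0.13, with 0 past 1.2-fold. SPRY1, a Sprouty inhibitor, measured 8.56 and 8.72, a difference of 0.16. PHLDA2, an imprinted growth-restraining gene, differed by 0.15, and SPRED2, a relative of SPRED1, differed by 0.10 (10.37 and 10.48). SPRY1 and SPRED2 thus lay on the other side of the control from SPRY2 and SPRED1.

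Of the other ETS family factors, 24 were measured and 10 expressed. Of these, 6 were above the control and 4 below it. The median was 0.02, with 0 past 1.2-fold. ETV1, the third PEA3 gene, was below the filter (4.09 and 4.15). ERF, an ETS repressor that ERK inactivates, differed by 0.09. GABPA, a broadly expressed ETS factor, had the lowest mean difference, -0.24, but its probes disagreed: 1 differed by 0.01 and the other by -0.48. ELF5, an epithelial ETS factor close to the filter, differed by 0.23 (7.15 and 7.38).

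Upstream, the receptors and ligands held 10 expressed genes of 19 measured, with 6 above and 4 below the control, a median of 0.03 and 0 past 1.2-fold. EGFR, the epidermal growth factor receptor, measured 8.82 in the control and 8.99 after SiO2-NP. ERBB2, its relative, measured 9.23 and 9.36. These were the largest differences among the expressed genes of the list, at 0.16 and 0.12.

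The cascade from RAS to ERK held 15 genes with a value, all expressed, with 8 above the control and 7 below it. The median was 0.03. The count above the control was 11 with quantile normalization, and likewise when a running median over genes of like level was subtracted. RRAS, a RAS-related GTPase, measured 8.62 and 8.90 and was 1.21-fold higher, the 1 gene of the list past 1.2-fold. MAP2K1, which encodes the kinase MEK1, differed by 0.19, and MAPK3, which encodes ERK1, by 0.07 (9.73 and 9.80).

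The other negative regulators of receptor and RAS signalling had 14 measured and 11 expressed genes. Of the 11, 8 were above the control, with a median of 0.04 and 0 past 1.2-fold. ERRFI1, an inhibitor of EGFR that ERK also induces, measured 11.28 and 11.46, a difference of 0.18. LRIG3, a membrane protein of the LRIG family, measured 8.01 and 7.83, a difference of -0.18. The 2 largest differences of this list had opposite signs.

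The other ERK-induced genes held the largest single difference of the lists. Of 12 expressed among 19 measured, 9 were above and 3 below the control, with a median of 0.06. EGR1, an immediate-early transcription factor that ERK and other stimuli induce within minutes, measured 9.53 and 10.03, or 1.42-fold higher. ZFP36, which promotes decay of inflammatory mRNAs, measured 7.11 and 7.44, 1.25-fold higher, and its mean lies just above the filter. These were the 2 genes of the list past 1.2-fold. The number was 3 with quantile normalization or when the running median was subtracted. CCND1, the cyclin that drives entry into the cell cycle, differed by 0.01. EGR1 was therefore higher by more than any of the 10 members, and CCND1 by less than each of those that were higher.

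The p38 and JNK cascade, which DUSP1, DUSP4 and DUSP16 restrain, had 4 of 13 expressed genes above the control and a median of -0.03. In all, 16 genes of the list were measured, and MAPK14 and MAP2K7 had no single-symbol probe. MAP2K6, a kinase that activates p38, measured 7.72 and 7.41 and was 1.24-fold lower, the 1 gene of the list past 1.2-fold. MAPK13, a p38 kinase, differed by 0.20. The count above the control was 7 with quantile normalization, and likewise when a running median over genes of like level was subtracted.

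**Figure D4:**
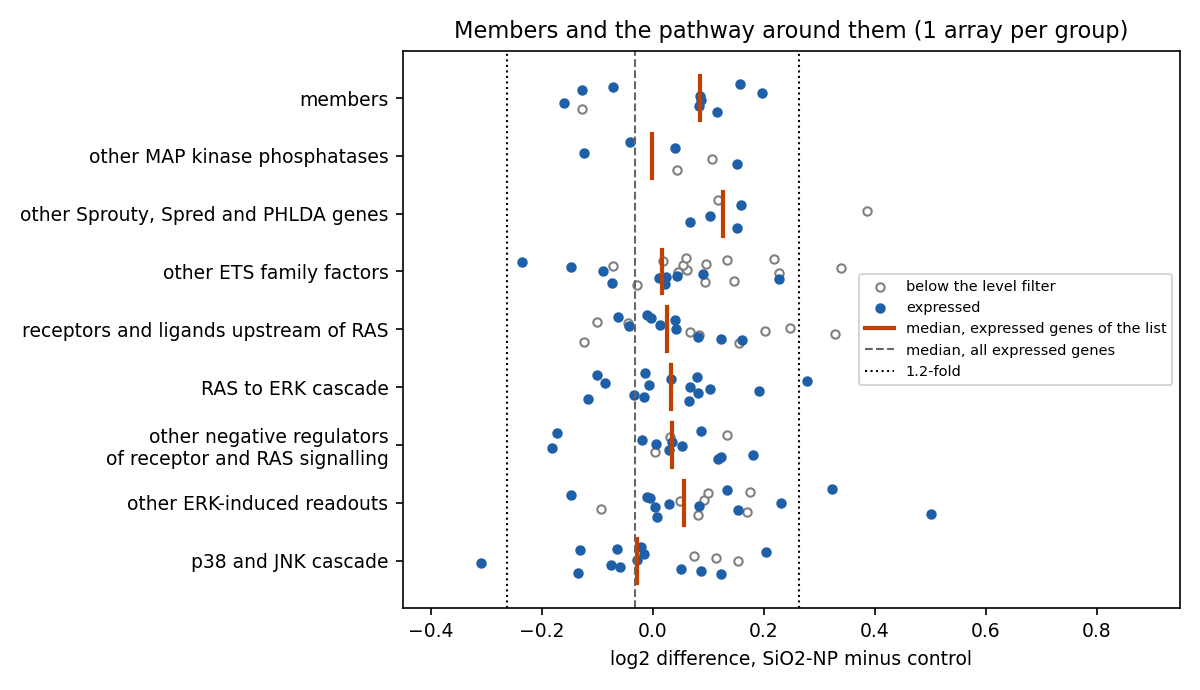
Log2 difference, SiO2-NP minus control (x axis), of the genes of each list (rows): expressed genes as filled points, genes below the level filter as open points, the median of each list's expressed genes as a red bar, and 1.2-fold as dotted lines. The members' median is 0.09, the other lists' medians run from -0.03 to 0.13, and the expressed genes past 1.2-fold are EGR1, ZFP36, RRAS and MAP2K6.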

How the data were processed

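The authors deposited 1 log2 intensity per probe (transcript cluster) and array. The log2 scale is inferred from the range of the values, 2.08 to 14.4. The submitters' processing notes name RMA and MAS5; which made the values is not given in the sources used here. Scanner files were not used here, so dim and absent transcripts could not be told apart. Arrays have no read depth; their number (2) limits the precision.

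Probes with exactly 1 symbol in the platform annotation (19460 of 33297) were averaged per gene; each of the 10 genes had 1 probe. Differences are SiO2-NP minus control, in log2 units. Named genes were all members, the 2 expressed genes of each list with the largest absolute difference, and a few fixed names. The members and lists were chosen with earlier results of these data known. Level classes are 4 equal parts of the genes ranked by mean level. Alternatives are given in the closing section. Steps were tested on simulated data with planted shifts of 1 log2 unit, read at 1.5-fold only. Those shifts were larger than any member difference, so differences of the members' size were not tested. Computation used pandas 2.3.3 with NumPy 2.4.6 in Python 3.11.15, and plots used matplotlib 3.10.9.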

Additional observations from a re-analysis of the deposited data

How the results depend on the processing

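No paired analysis was possible because there was a single array on each side, and no replicate could be left out. For each member, 5 alternatives were run. These were centring on the median of all genes or on a running median by level, quantile normalization, the brightest probe, and probes with several symbols. The 10 members' differences kept their sign in 50 of 50 cases and moved by at most 0.07. PHLDA1 reached 0.25 with quantile normalization. Each member had 1 probe, so the brightest probe could not change its value, and probes with several symbols left it unchanged. Centring on the median lowered every difference by 0.012, less than the size of any member's difference. The count of 50 therefore says little beyond the running median and quantile normalization. The members' median ran from 0.04 (as a mean) to 0.13, and 0 members passed 1.2-fold in any setting. Medians of the lists for other MAP kinase phosphatases, other ETS factors and the p38 and JNK cascade changed sign between settings. A move was called when it exceeded the SD of 0.16 across expressed genes, or 1.5 times for a count. Without the level filter, counts above the control were 4 (other phosphatases), 18 (other ETS), 12 (receptors), 15 (ERK-induced) and 7 (p38 and JNK), and 1 gene each of the Sprouty relatives, other ETS and receptor lists passed 1.2-fold higher. With the filter at the 75th percentile, fewer genes left counts of 1 (other phosphatases, Sprouty relatives, other ETS), 4 (negative regulators, ERK-induced) and 2 (p38 and JNK), with 1 ERK-induced gene higher and 0 p38 and JNK genes lower by 1.2-fold. The brightest probe left 1 ERK-induced gene, since ZFP36 then fell below the filter. With a running median or quantile normalization, 3 ERK-induced genes were higher by 1.2-fold. The p38 and JNK count was 7 with a running median or quantile normalization. Under either setting the counts were also higher for the RAS to ERK cascade (11), receptors (8) and ERK-induced genes (11). The cause of these shifts was not tested.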

Other observations

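Of the pathway list genes below the level filter, the 3 with the largest differences are given here, each larger than that of any member. They were picked after their values were seen, and other genes below the filter, such as ETV1 (0.06) and SPRY3 (0.12), had differences within the range of the members. SPRED3, a Spred gene, measured 6.35 in the control and 6.74 after SiO2-NP, a difference of 0.39. ETV2, an ETS factor of blood vessel development, measured 6.41 and 6.75, a difference of 0.34. EREG, which encodes the EGFR ligand epiregulin, measured 5.55 and 5.88, a difference of 0.33. The dimmer 2 of the 4 level classes each had a median difference of 0.07, and their central 95% ran from -0.36 to 0.46 in the dimmest and from -0.36 to 0.43 in the next, so these values lie inside the range of probes of like level. Of all measured genes, 52.3% were above the control, against 40.2% of the expressed ones.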
